A study of Homo sapiens with 8 samples.

Results

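The immediate early genes described here are 10 genes whose transcripts appear within minutes of a signal: FOS, FOSB, JUN, JUNB, JUND, EGR1, IER2, IER3, DUSP1 and DUSP2. They were chosen by name, as familiar members of the class, from the 24351 genes into which the deposited transcripts were summed. All 10 were present, with 32 transcripts in all, and all 10 reached the level needed for testing. The cells were the human lines ARP1 and H929, both of multiple myeloma, the cancer that arises from plasma cells, and their poly(A) RNA was sequenced. Each line had 1 library of each of 4 genotypes: CHEK1 overexpression, the control of overexpression, CHEK1 knockdown, and the control of knockdown. Each CHEK1 library and its own control are called an arm. The labels say neither by what construct CHEK1 was changed nor what the controls carried, and give no serum, stimulus or harvest time. The lines stand as replicates of a genotype (n = 2), so a p-value reflects the spread among these libraries and no other. Between the lines, n = 4 counts the 4 genotypes of a line and not repeat cultures of 1 genotype.

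Immediate early genes are held ready by factors such as SRF and CREB, and kinases of the ERK, JNK and p38 pathways switch them on without new protein synthesis. Fos and Jun proteins pair as AP-1, which binds enhancers, and EGR1 is a zinc finger factor that induces its own corepressor NAB2. DUSP1 and DUSP2 are phosphatases that remove the activating phosphates from these kinases and so close the loop. Their messages are short-lived, and in plasma cells and other cells their levels follow signalling and handling closely.

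Levels are given as FPKM, the fragments of a transcript for its length and for the size of the library, so levels of different genes are per length and can be set side by side. Summed FPKM per library was 631871 to 693299, with unknown read numbers. The name under which the values were deposited calls them means. CHEK1, the targeted kinase gene, stood at 114 FPKM with overexpression against 78.2 in its control in ARP1, and at 107 against 81.6 in H929. The libraries labelled knockdown held 51.6 FPKM against 61.0 for the ARP1 control, and 84.8 against 80.7 for that of H929. By its CHEK1 RNA the H929 library labelled knockdown thus goes against its label. All 6 plasma cell markers were present at 17.8 to 976 FPKM. Of 9 markers of T and NK, myeloid, stromal and epithelial cells only COL1A1 reached 1 FPKM (up to 3.30, in the H929 control of knockdown), and the 9 summed to 0.657 to 3.93 FPKM per library.

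Gene positions are those of GENCODE 29 on GRCh38. Among the AP-1 subunits, JUND (chr19:18279760-18281622, minus strand), a Jun protein made at a steady level in many cells, was listed highest. It ranged from 69.3 FPKM through a median of 94.6 to 135 over the 8 libraries. That sum includes the 500 nt JUND-202, and JUND-201 (1863 nt) alone ran from 30.0 to 61.6 FPKM. JUNB (chr19:12791496-12793315, plus strand), which often acts against JUN, ran from 31.9 through 44.1 to 61.4 FPKM. FOS (chr14:75278774-75282230, plus strand), the founding Fos protein, ran from 12.0 through 30.1 to 78.2 FPKM, and its relative FOSB (chr19:45467995-45475179, plus strand) from 7.89 through 13.7 to 31.1. JUN itself (chr1:58780788-58784327, minus strand) ran from 4.24 through 14.5 to 41.1 FPKM. JUN, FOS and FOSB thus varied more between libraries, for their level, than JUND and JUNB. Beyond the subunits, EGR1 (chr5:138465490-138469315, plus strand) ran from 5.50 through 31.0 to 80.8 FPKM, and IER2 (chr19:13150415-13154908, plus strand), an early response protein of the nucleus, from 33.1 through 47.2 to 59.8. IER3 (chr6:30743199-30744554, minus strand), a stress-induced regulator of cell death, ran from 5.19 through 8.93 to 16.6 FPKM. Of the phosphatase genes, DUSP1 (chr5:172768090-172771195, minus strand) ran from 7.18 through 13.4 to 19.97 FPKM, and DUSP2 (chr2:96143166-96145440, minus strand) from 4.72 through 13.2 to 21.9. By median of the summed levels the order was JUND, IER2, JUNB, EGR1, FOS, JUN, FOSB, DUSP1, DUSP2 and IER3. The range of the JUND sum, though not of JUND-201 alone, lay above that of IER2, and the ranges of all other neighbours overlapped. After each line's mean was taken out, the widest ranges on the log2 scale of FPKM + 1 were those of JUN (2.18), FOS (2.10) and FOSB (1.68), and the narrowest was that of IER2 (0.71).

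**Figure D1:**
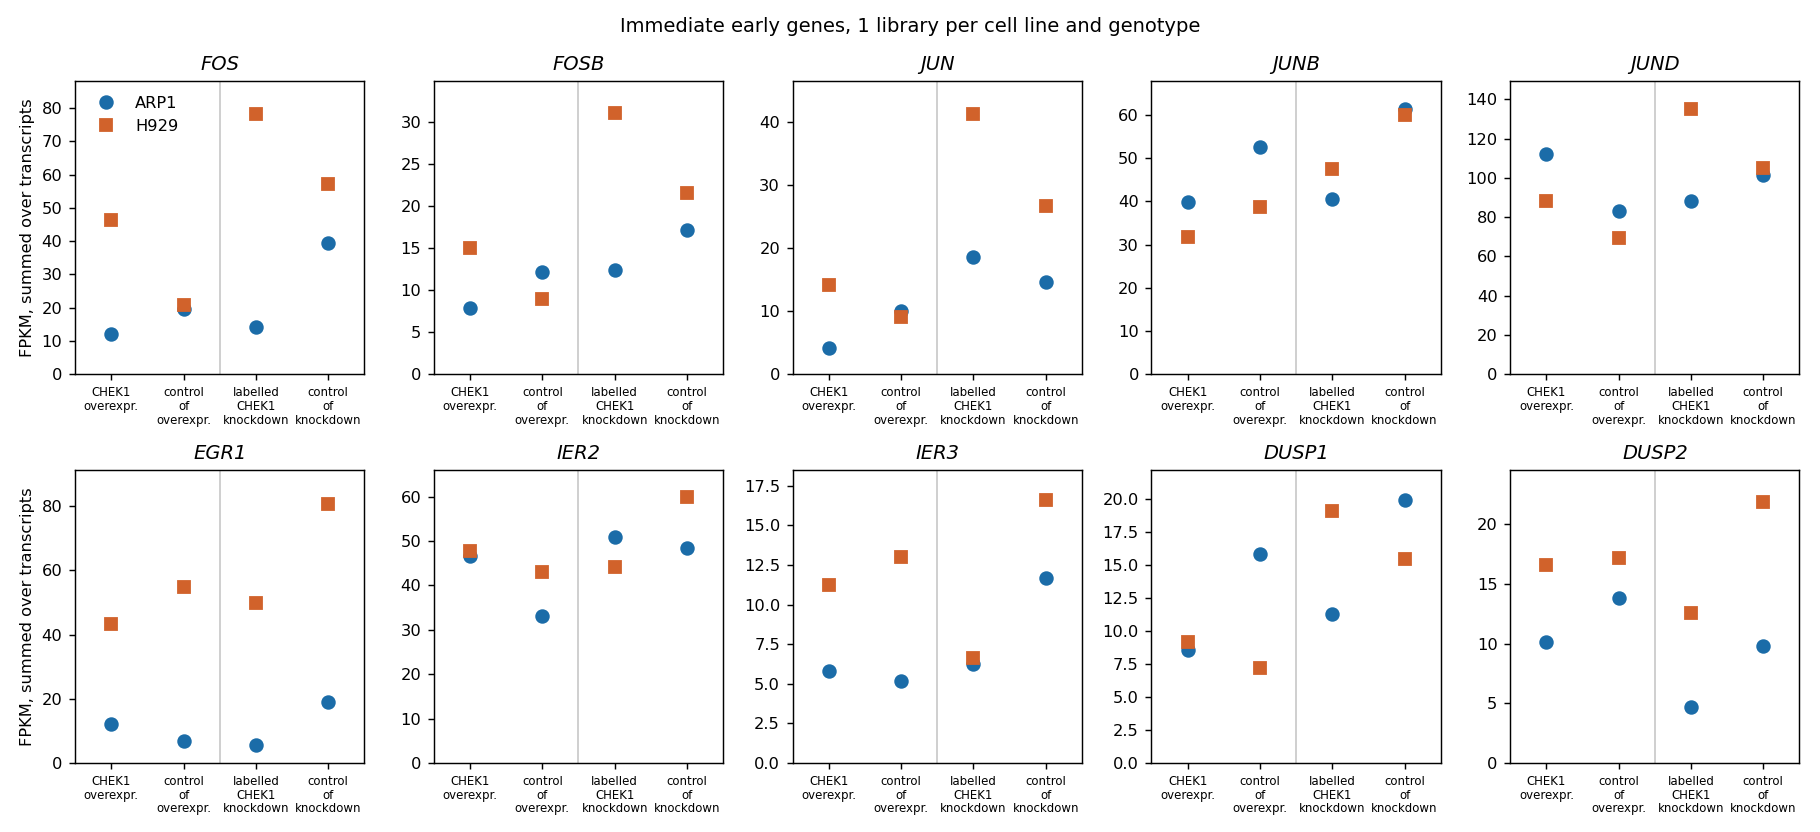
FPKM of each of the 10 genes (vertical axis, from 0, scaled per gene) in each genotype (horizontal axis), with 1 point per library, circles for ARP1 and squares for H929. EGR1 is higher in each H929 library (43.1 to 80.8) than in any ARP1 library (5.50 to 18.9), and JUN is higher in each library of the knockdown arm (14.7 to 41.1) than in any of the overexpression arm (4.24 to 14.2).

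The start regions of EGR1, which separated the lines, and of FOS, FOSB, JUN and DUSP1, whose ratios with overexpression had opposite signs in the lines, are shown. Each is 250 bases before to 50 bases after the start, from RefSeq on GRCh38.p14, 5′ to 3′ on the gene's strand. The RefSeq start is not always the end of the GENCODE span given above. For JUN the window (58783998-58784297) lies wholly within that span (58780788-58784327). Its bases before the RefSeq start are thus inside the JUN gene as listed here. Capitals mark CArG boxes (the SRF site), TGACG on either strand (CGTCA where it reads from the other strand, the core of the CREB site) and TGACATCA, an AP-1-like site.
EGR1, chr5:138465229-138465528, plus strand: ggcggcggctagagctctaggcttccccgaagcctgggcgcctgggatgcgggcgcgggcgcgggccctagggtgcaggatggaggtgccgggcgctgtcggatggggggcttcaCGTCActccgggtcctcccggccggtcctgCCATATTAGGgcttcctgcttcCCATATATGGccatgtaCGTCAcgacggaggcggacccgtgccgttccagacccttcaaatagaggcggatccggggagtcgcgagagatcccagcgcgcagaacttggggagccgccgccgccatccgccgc
FOS, chr14:75278578-75278877, plus strand: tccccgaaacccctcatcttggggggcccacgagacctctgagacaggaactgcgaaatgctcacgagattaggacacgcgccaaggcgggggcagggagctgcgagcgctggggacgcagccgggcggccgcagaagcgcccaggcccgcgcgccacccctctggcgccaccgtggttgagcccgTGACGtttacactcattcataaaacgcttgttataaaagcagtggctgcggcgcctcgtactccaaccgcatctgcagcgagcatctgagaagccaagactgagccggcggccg
FOSB, chr19:45467746-45468045, plus strand: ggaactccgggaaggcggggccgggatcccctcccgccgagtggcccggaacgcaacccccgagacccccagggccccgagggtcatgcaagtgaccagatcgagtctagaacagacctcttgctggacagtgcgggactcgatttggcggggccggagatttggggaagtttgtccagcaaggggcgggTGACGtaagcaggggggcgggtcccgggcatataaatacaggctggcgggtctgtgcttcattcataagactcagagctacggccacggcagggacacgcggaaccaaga
JUN, chr1:58783998-58784297, minus strand: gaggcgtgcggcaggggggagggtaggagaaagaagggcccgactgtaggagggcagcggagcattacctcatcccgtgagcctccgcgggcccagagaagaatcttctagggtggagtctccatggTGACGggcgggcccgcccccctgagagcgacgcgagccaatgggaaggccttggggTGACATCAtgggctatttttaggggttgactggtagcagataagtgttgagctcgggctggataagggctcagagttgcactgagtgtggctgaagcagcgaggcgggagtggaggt
DUSP1, chr5:172771146-172771445, minus strand: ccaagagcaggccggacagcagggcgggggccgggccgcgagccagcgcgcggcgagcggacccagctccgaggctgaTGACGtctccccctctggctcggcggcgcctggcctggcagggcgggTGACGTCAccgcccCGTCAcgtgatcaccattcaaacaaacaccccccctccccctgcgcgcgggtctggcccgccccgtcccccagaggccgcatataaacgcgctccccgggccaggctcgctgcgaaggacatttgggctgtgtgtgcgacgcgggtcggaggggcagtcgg

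EGR1 alone of the 9 members with an entry held CArG boxes in this window, CCATATTAGG at -105 and CCATATATGG at -83, counted from the start. A CArG box was found in 1.29% of the 35116 start regions of this length. TGACG on either strand stood in 8 of the 9, all but DUSP2, against 24.6% of all start regions. It began at -64 in FOS, at -60 in FOSB and at -123 in JUN. The full palindrome TGACGTCA, which overlaps TGACG, was found in DUSP1 and JUND and in 1.85% of all regions. JUN alone held TGACATCA, at -67, found in 2.61% of all regions. The JUN sites are counted from the RefSeq start and lie within the GENCODE span of the gene. TGANTCA, with any base in the middle and so wider than the usual AP-1 site, was found in none of the 9 and in 7.71% of all regions. Both strands were searched. Bases beyond these windows were not, so a site not found is absent from the window alone. These are matches of letters and describe no binding. IER3 had no entry.

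Of the 10 members, EGR1 differed most between the lines. In ARP1, EGR1 stood at 12.3 FPKM with CHEK1 overexpression and 6.98 in its control, and at 5.50 for labelled knockdown and 18.9 in its control. In H929 the same genotypes held 43.1 and 54.7, and 49.7 and 80.8 FPKM. Every ARP1 library was below every H929 library, with means of 10.9 ± 6.07 FPKM in ARP1 and 57.1 ± 16.5 in H929 (SD, n = 4 each). By limma the log2 fold change of ARP1 over H929 was -2.39 (SE 0.22, adjusted p = 0.00118), and the adjusted p was 0.000361 to 0.0115 over 10 alternative settings. In these bulk libraries, fewer expressing cells and less RNA per cell cannot be told apart.

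DUSP2, a nuclear phosphatase of blood cells, was also lower in ARP1. Its ARP1 levels were 10.1 FPKM with overexpression against 13.8 in its control, and 4.72 FPKM for labelled knockdown against 9.80 in its control. The H929 levels were 16.5 and 17.1, and 12.5 and 21.9 FPKM. The lines overlapped only where the ARP1 control of overexpression exceeded the H929 library labelled knockdown. The fold change was -0.82 on the log2 scale (SE 0.17, limma adjusted p = 0.0169). IER3 averaged 7.23 ± 2.999 FPKM in ARP1 and 11.9 ± 4.12 in H929 (SD, n = 4 each), with overlapping libraries. Its log2 fold change of -0.64 (SE 0.19) passed narrowly in limma, with adjusted p = 0.0465. The alternatives gave 0.0298 to 0.107 for IER3 and 0.00926 to 0.0514 for DUSP2. Leaving out the ARP1 or the H929 control of knockdown left only EGR1 past the threshold, with limma adjusted p = 0.0721 and 0.0734 for DUSP2. IER3 also missed it without any one library of the overexpression arm (adjusted p of 0.144 to 0.164), and DUSP2 did not.

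These 3 members fell in ARP1 and 0 rose, against 13.4% of all genes tested that fell and 13.7% that rose in this comparison. FOS and JUN stood at -1.21 (SE 0.37, limma adjusted p = 0.0533) and -0.83 (SE 0.26, adjusted p = 0.0528). Both passed with protein-coding genes alone, at adjusted p = 0.0336 and 0.0340. FOSB stood at -0.50, and JUNB at 0.14, JUND at -0.02, IER2 at -0.12 and DUSP1 at 0.15, none past the test (limma adjusted p of 0.187 or more). One member, EGR1, had all 4 ARP1 libraries below the 4 of H929, a pattern of 13.7% of all genes.

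NAB2, the corepressor that EGR1 induces, was lower in ARP1 as well. It stood at 12.4 FPKM with overexpression and 10.2 in its control, and at 4.84 for labelled knockdown against 12.1 in its control. The H929 levels were 20.4 and 24.4, and 19.3 and 27.7 FPKM. The log2 fold change of NAB2 was -1.20 (SE 0.18, limma adjusted p = 0.00583).

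**Figure D2:**
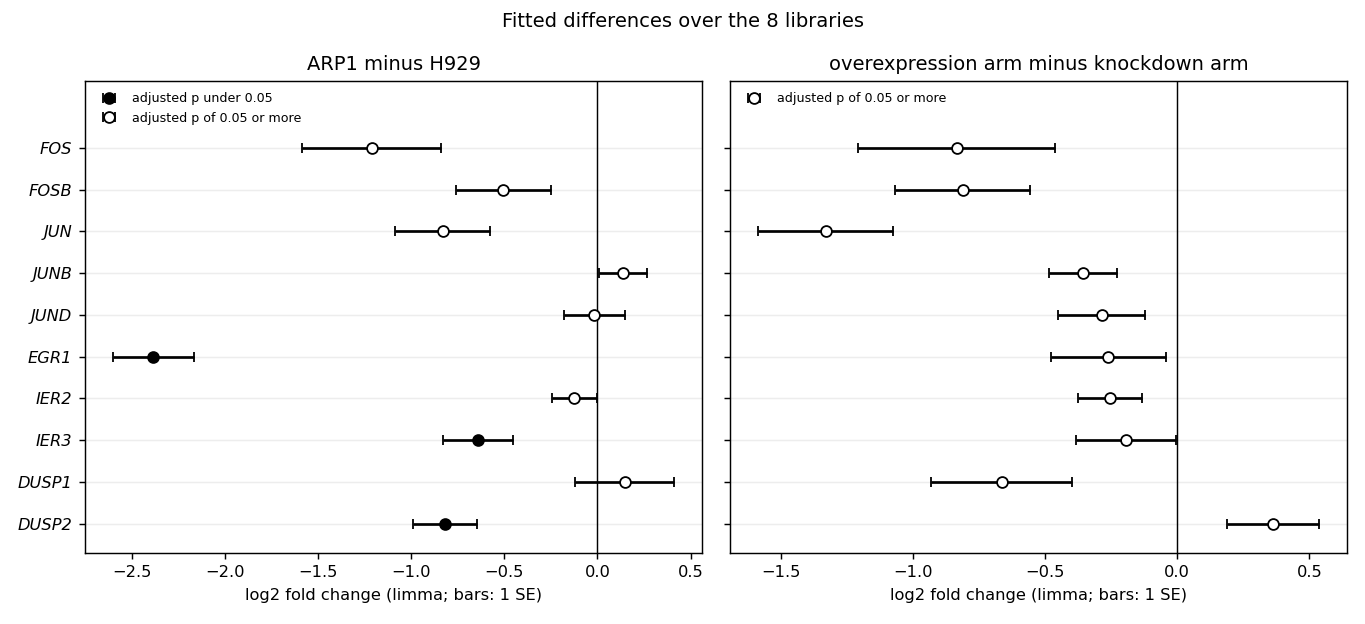
Log2 fold changes of the 10 genes fitted over the 8 libraries (horizontal axis, bars 1 SE), for ARP1 minus H929 on the left and the overexpression arm minus the knockdown arm on the right. Filled points (EGR1, IER3 and DUSP2, left) passed an adjusted p of 0.05, and JUN is the farthest from 0 on the right at -1.33.

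In the libraries labelled CHEK1 knockdown, EGR1, IER3, DUSP2 and JUNB were lower than in the control of knockdown in both lines, by values that did not pass the test over all genes. EGR1 held 5.50 FPKM in the ARP1 library labelled knockdown against 18.9 in its control, and 49.7 against 80.8 in H929. IER3 held 6.23 against 11.7 FPKM in ARP1 and 6.65 against 16.6 in H929. DUSP2 held 4.72 against 9.80 FPKM in ARP1 and 12.5 against 21.9 in H929. For JUNB the levels were 40.6 against 61.4 FPKM in ARP1 and 47.6 against 59.9 in H929. In each line the library labelled knockdown was thus the lower one for all of these genes. The log2 fold changes were -1.15 for EGR1 (SE 0.31), -1.005 for IER3 (SE 0.27), -0.84 for DUSP2 (SE 0.25) and -0.46 for JUNB (SE 0.18). Limma gave adjusted p = 0.494 for EGR1 and IER3, 0.511 for DUSP2 and 0.538 for JUNB. Without the H929 library labelled knockdown, whose CHEK1 was not lower, the fold changes were -1.54, -0.63, -1.12 and -0.70, the genes in the same order. That fit rests on ARP1 alone for the knockdown, with the lone library assumed to vary like the others. CHEK1 in that library was 51.6 FPKM against 61.0 in its control.

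Of the 10 members 0 passed the adjusted threshold in this comparison, in which 0.0134% of all genes tested did. At an unadjusted p under 0.05, limma had 4 members lower and 0 higher, where 4.72% of all genes were lower and 4.42% higher. The members' median log2 fold change was -0.35, against -0.02 over all genes tested. Lower in both lines were 4 of 10 members, against 28.9% of all genes. On the scale of FPKM + 1, on which all 2-fold counts here were made, FOS and EGR1 were at least 2-fold lower in ARP1 (3.72% of all genes) and IER3 in H929 (1.75%). On FPKM itself DUSP2 in ARP1, at 0.482 of its control, was also past 2-fold. COL1A1, the 1 marker of other cells that was tested, was lower in the same comparison, at 0.142 FPKM against 1.11 in ARP1 and 0.339 against 3.30 in H929 (log2 fold change -1.29, SE 0.32, limma adjusted p = 0.494). The 9 markers of other cells, COL1A1 among them, summed to 1.53 FPKM against 2.30 in ARP1 and to 1.24 against 3.93 in H929. These lower sums lay in COL1A1. CD14 was higher in both lines, at 0.747 FPKM against 0.431 in ARP1 and 0.589 against 0.200 in H929. CSF1R was lower in both, at 0.208 against 0.560 and 0.272 against 0.410. The part of these markers in the members' values was not tested.

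FOS, FOSB, JUND and DUSP1 were lower in the ARP1 library labelled knockdown and higher in the H929 one. FOS held 14.1 FPKM against 39.4 in the ARP1 control, and 78.2 against 57.1 in H929. FOSB held 12.5 against 17.2 FPKM in ARP1 and 31.1 against 21.6 in H929. DUSP1, which acts on p38, JNK and ERK, held 11.3 against 19.97 FPKM in ARP1 and 19.1 against 15.5 in H929. The ratios of JUND were small in both lines, with log2 values of -0.20 in ARP1 and 0.36 in H929. This split was seen in 4 of 10 members and in 22.7% of all genes. JUN was the 1 member higher in both lines (27.2% of all genes), at 18.6 against 14.7 FPKM in ARP1 and 41.1 against 26.6 in H929 (log2 fold change 0.47, SE 0.36, limma adjusted p = 0.670). The 1 member higher in ARP1 and lower in H929 (19.2% of all genes) was IER2, at 50.9 against 48.5 FPKM in ARP1 and 44.1 against 59.8 in H929.

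With CHEK1 overexpression the lines also parted for FOS, FOSB, JUN and DUSP1. FOS held 12.0 FPKM with overexpression against 19.7 in the ARP1 control, and 46.3 against 20.8 in H929. JUN held 4.24 against 10.1 FPKM in ARP1 and 14.2 against 9.10 in H929. FOSB held 7.89 against 12.2 FPKM in ARP1 and 15.0 against 9.01 in H929. DUSP1 held 8.59 against 15.9 FPKM in ARP1 and 9.21 against 7.18 in H929. All of these genes were thus lower in ARP1 and higher in H929, a split of 4 of 10 members and of 21.7% of all genes. The difference between the lines has no replicate within a line and was not tested. Among the members, on the scale of FPKM + 1 and on FPKM itself, only JUN in ARP1 was at least 2-fold lower (1.95% of all genes) and only FOS in H929 at least 2-fold higher (1.28%).

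JUNB was lower with overexpression in both lines, at 39.9 against 52.6 FPKM in ARP1 and 31.9 against 38.8 in H929. DUSP2 was lower too, at 10.1 against 13.8 FPKM in ARP1 and 16.5 against 17.1 in H929. JUND was higher at 112 against 83.0 FPKM in ARP1 and 88.0 against 69.3 in H929, and IER2 at 46.6 against 33.1 and 47.7 against 43.1, so 2 of 10 were higher in both lines, against 28.0% of all genes. EGR1 was higher in ARP1 (12.3 against 6.98 FPKM) and lower in H929 (43.1 against 54.7), and IER3 likewise, at 5.81 against 5.19 in ARP1 and 11.2 against 12.99 in H929, the reverse split that 18.3% of all genes had. None of the 10 passed by limma, with the smallest adjusted p = 0.994, where 0.00671% of all genes tested did, and 0 reached an unadjusted p under 0.05, where 4.45% of all genes did. The members' median log2 fold change was 0.01, against -0.01 over all genes tested, and 2 of 10 were lower in both lines against 30.1% of all genes.

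The overexpression effect minus the knockdown effect was positive for EGR1 (log2 difference 1.35, SE 0.43) and IER3 (0.97, SE 0.38). Limma gave adjusted p = 0.621 for both. In this comparison 0 members passed, with 0.0134% of all genes past the adjusted threshold. At an unadjusted p under 0.05, 2 members were higher, against 3.84% of all genes.

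**Figure D3:**
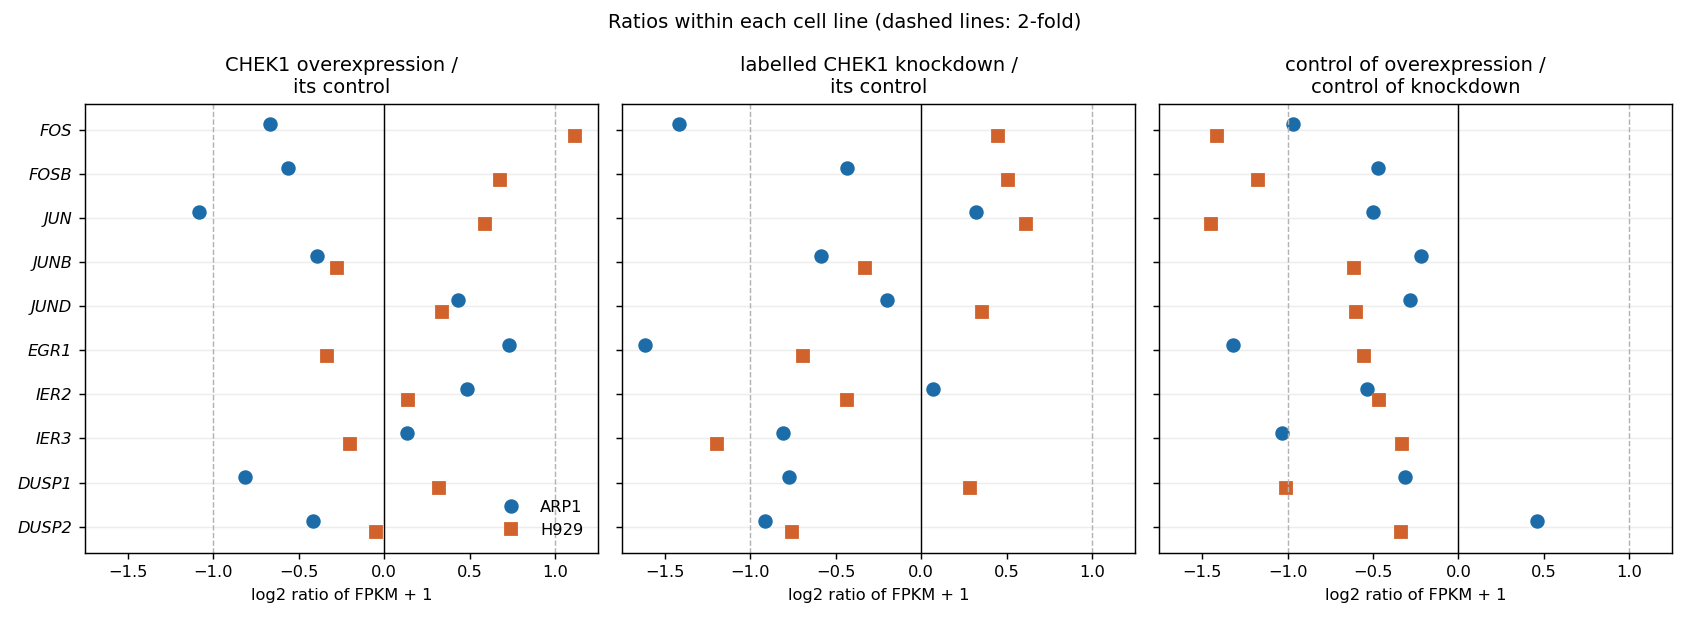
Log2 ratios of FPKM + 1 within each line (horizontal axis) for the 10 genes, with circles for ARP1, squares for H929 and dashed lines at 2-fold, for overexpression, for the libraries labelled knockdown, and for the control of overexpression over the control of knockdown. In the right panel all points are left of 0 except DUSP2 in ARP1 at 0.46.

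The controls themselves stood apart. In the control of overexpression 9 of 10 members were lower than in the control of knockdown in both lines, a pattern of 32.9% of all genes. DUSP2 was the exception, lower in H929 (17.1 against 21.9 FPKM) and higher in ARP1 (13.8 against 9.80). FOS held 19.7 FPKM in the ARP1 control of overexpression against 39.4 in the control of knockdown, and 20.8 against 57.1 in H929. EGR1 held 6.98 against 18.9 FPKM in ARP1 and 54.7 against 80.8 in H929, and JUN 10.1 against 14.7 and 9.10 against 26.6. At least 2-fold lower on the scale of FPKM + 1 were EGR1 and IER3 in ARP1 (2.99% of all genes) and FOS, FOSB, JUN and DUSP1 in H929 (2.63%). On FPKM itself FOS in ARP1, at 0.499 of the control of knockdown, was also past 2-fold. The members' median log2 fold change was -0.67, against -0.01 over all genes tested. By limma 4 members (JUN, EGR1, IER2 and IER3) were lower at an unadjusted p under 0.05, where 6.09% of all genes were. The same comparison held COL1A1 at 0.0946 FPKM against 1.11 in ARP1 and at 0.299 against 3.30 in H929. The 9 markers of other cells, COL1A1 included, summed to 1.37 FPKM against 2.30 in ARP1 and to 0.657 against 3.93 in H929. Most of that difference lay in COL1A1. CSF1R was lower in both lines, at 0.473 against 0.560 FPKM in ARP1 and 0.130 against 0.410 in H929. CD3D and NKG7 were at 0 in every library. CD3E held 0.591 FPKM against 0.198 in ARP1 and 0 in each H929 library. The part of these markers in the result was not tested. None of the 10 members passed the adjusted threshold (smallest adjusted p = 0.389, for EGR1), which 0.0537% of all genes passed. The count of 9 was the same under median-ratio and TPM-like scaling, without transcripts under 300 nt, and with FPKM weighted by transcript length.

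The comparison of the controls shares the control of knockdown with that of the libraries labelled knockdown, and the control of overexpression with that of overexpression. Set against the other control of its line, EGR1 in the library labelled knockdown held 5.50 FPKM against 6.98 in ARP1 and 49.7 against 54.7 in H929. IER3 held 6.23 against 5.19 FPKM in ARP1 and 6.65 against 12.99 in H929, and DUSP2 4.72 against 13.8 and 12.5 against 17.1. JUNB held 40.6 against 52.6 FPKM in ARP1 and 47.6 against 38.8 in H929. DUSP2 and EGR1 were thus lower against either control in both lines, EGR1 by less than 2-fold against this control, while IER3 and JUNB were lower in 1 line only. In H929, 4 members (FOS, FOSB, JUN and DUSP1) were at least 2-fold higher than in the other control, against 2.62% of all genes. Overexpression set against the control of knockdown was lower in both lines for 8 of 10 members, against 34.0% of all genes.

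Between the arms JUN differed most. In the overexpression arm JUN stood at 4.24 and 10.1 FPKM in ARP1 and at 14.2 and 9.10 in H929, each time the CHEK1 library before its control. In the knockdown arm it stood at 18.6 and 14.7 FPKM in ARP1 and at 41.1 and 26.6 in H929. No library of the overexpression arm reached the lowest of the knockdown arm, a pattern of 1 of 10 members and 3.92% of all genes. The log2 fold change was -1.33 (SE 0.26, limma adjusted p = 0.0682). It passed with protein-coding genes alone (adjusted p = 0.0430), with a minimum of 5 FPKM (0.0483) and without transcripts under 300 nt (0.04995), and the 11 alternatives ran from 0.0430 to 0.415. Without the H929 library labelled knockdown it was -1.24 (limma adjusted p = 0.0503). The fold changes of FOS (-0.84), FOSB (-0.81), DUSP1 (-0.66) and JUNB (-0.36) were also negative, and that of DUSP2 was 0.36. In this comparison 0.107% of all genes passed and 0 members did. At an unadjusted p under 0.05, limma had 4 members lower, against 12.3% of all genes. In ARP1 the share of FPKM from mitochondrially encoded genes was 5.53% and 5.95% in the overexpression arm and 7.94% and 7.88% in the knockdown arm, and in H929 8.11% and 7.01% against 7.94% and 7.73%. Its part in the result was not tested. The labels give no batch for the libraries, so an arm and any batch it formed cannot be told apart.

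By line and genotype, the H929 library labelled knockdown ranked first of the 4 H929 libraries for FOS, FOSB, JUN, JUND and DUSP1, and its control ranked second for each. The share of all genes with that order was not computed. The H929 control of knockdown ranked first for JUNB, EGR1, IER2, IER3 and DUSP2, 5 of 10 members, against 25.3% of all genes. In ARP1 the control of knockdown ranked first for FOS, FOSB, JUNB, EGR1, IER3 and DUSP1, 6 of 10 members, against 23.5% of all genes. It ranked first in both lines for JUNB, EGR1 and IER3, 3 of 10 against 9.90% of all genes. The 10 members summed to 260 FPKM with overexpression and 252 in its control in ARP1, and to 252 for labelled knockdown and 343 in its control. In H929 the sums were 323 and 282, and 465 and 465.

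JUN, JUNB, EGR1, DUSP1 and DUSP2 each had a single listed transcript, so their gene level is that transcript's. The level of FOS was spread over 6 transcripts that reached 1 FPKM. The full-length FOS-201 (2158 nt) held 16.9% to 28.8% of the sum. FOS-201 stood at 2.03 FPKM with overexpression and 4.04 in its control in ARP1, and at 3.56 in the library labelled knockdown and 11.4 in its control. In H929 it stood at 10.4 and 4.35, and at 22.2 and 14.8 FPKM, the same order of libraries within each line as the FOS sum. FOSB rested on FOSB-209 (51.1% to 59.2%), FOSB-206 and FOSB-212, while FOSB-201, the longest, was listed near 0 in every library. In JUND the short JUND-202 (500 nt) held 42.3% to 65.2% of the sum. JUND-201 stood at 39.0 FPKM with overexpression and 38.3 in its control in ARP1, and at 33.0 and 30.0 in H929. The higher JUND sum with overexpression therefore lay mostly in JUND-202, at 73.1 against 44.7 FPKM in ARP1 and 55.1 against 39.3 in H929. In IER3 the share of IER3-202 reached 52.3%, in the ARP1 library labelled knockdown.

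**Figure D4:**
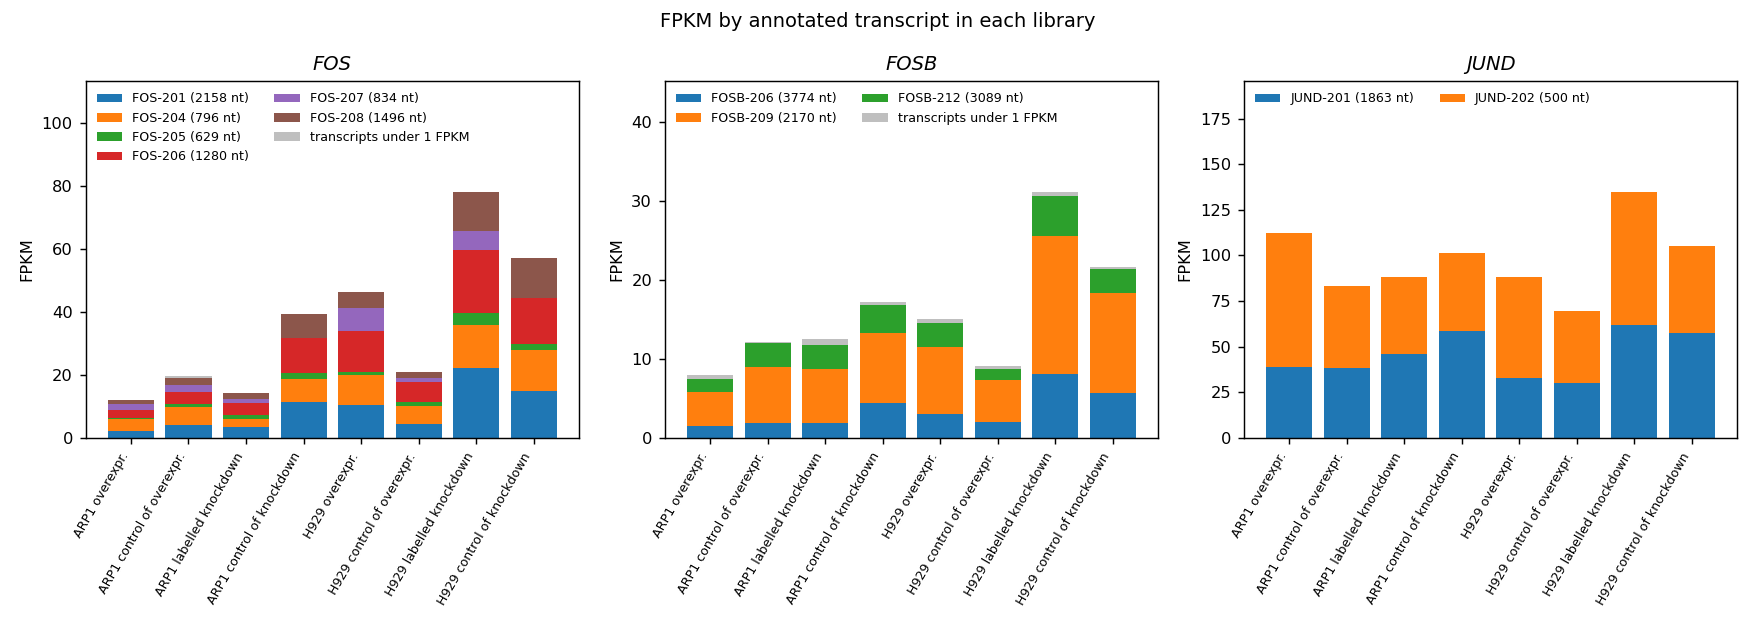
Stacked FPKM of the annotated transcripts of FOS, FOSB and JUND (vertical axis) in each library (horizontal axis), with transcripts that never reached 1 FPKM drawn together in grey. The H929 library labelled knockdown is the tallest bar in each panel (78.2, 31.1 and 135), and the 500 nt JUND-202 makes up 42.3% to 65.2% of JUND.

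FOSB lies wholly within the span of ERCC1 on the other strand (at most 42.8 FPKM), and JUNB within that of HOOK2 (at most 11.6). IER2 overlaps AC011446.2, an antisense gene listed at 65.5 to 119 FPKM, over 1123 bases. In ARP1 AC011446.2 had the same order of libraries as IER2. In H929 the highest and lowest libraries were the same, with the others in reverse order. Between the controls AC011446.2 held 65.5 FPKM with the control of overexpression against 92.0 in ARP1, and 77.2 against 119 in H929. IER3 and DUSP1 overlap antisense genes that stayed under 1 FPKM. The sources used here do not say whether reads were assigned by strand, and the levels of FOSB, JUNB and IER2 are uncertain to that extent.

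Of 30 further immediate early genes 21 were tested, and the other 9, EGR2, EGR3, NR4A2, NR4A3, KLF4, CYR61, CTGF, ARC and HES1, stayed at or under 0.918 FPKM. None of the 21 passed in either arm by limma. In the libraries labelled knockdown 14 had negative and 7 positive fold changes (median -0.17), where 7767 of the 14905 genes tested were negative, with 2 lower and 1 higher at an unadjusted p under 0.05. With overexpression the split was again 14 and 7 (median -0.17), where 7662 of the 14905 were negative, with 3 lower and 2 higher at an unadjusted p under 0.05. The highest fold changes in the libraries labelled knockdown were those of PPP1R15A, which reverses the translation block of stress (1.01), and KLF2 (0.59), and the lowest those of PLK3 (-0.52) and ZFP36L1, a decay factor of such messages (-0.41). With overexpression the highest were KLF2 (0.81) and SGK1 (0.77) and the lowest BTG2 (-1.03) and BTG1 (-0.66). Between the lines 7 of the 21 were higher in ARP1 (MYC, BTG2, ZFP36, ZFP36L1, SGK1, GADD45B and TRIB1) and 1, RHOB, was lower. In this and the lists that follow, counts between the lines stand against 13.7% of all genes higher and 13.4% lower in ARP1. Counts at an unadjusted p under 0.05 in limma stand against 4.72% of all genes lower and 4.42% higher in the libraries labelled knockdown. With overexpression the shares were 2.58% lower and 1.87% higher.

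Of 14 AP-1 partners 12 were tested and none passed in either arm by limma, with 1 lower and 3 higher in the libraries labelled knockdown, and 0 with overexpression, at an unadjusted p under 0.05. In the libraries labelled knockdown the highest were ATF3, a stress-induced partner of JUN (1.73), and JDP2, a repressor that pairs with JUN (1.16), and the lowest BATF (-0.81) and FOSL1 (-0.56), with limma adjusted p of 0.261 or more. ATF3 held 28.9 FPKM in the library labelled knockdown against 8.37 in the ARP1 control, and 15.2 against 3.70 in H929. JDP2 held 18.6 FPKM against 10.3 in the ARP1 control and 20.5 against 6.47 in H929. With overexpression the highest were FOSL2 (0.29) and ATF7 (0.12) and the lowest MAFK (-0.46) and BATF (-0.31). Between the lines 3 of the 12 (FOSL1, ATF3 and MAF) were higher in ARP1 and 1 (FOSL2) was lower.

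Of 17 feedback genes of the ERK, JNK and p38 pathways 15 were tested. In the libraries labelled knockdown 13 of the 15 had a negative fold change (median -0.16), where 7767 of all 14905 genes tested had one. None passed by limma in either arm, with 2 lower in the libraries labelled knockdown and 1 lower with overexpression at an unadjusted p under 0.05. The lowest fold changes were those of DUSP5, a nuclear ERK phosphatase (-0.69, limma adjusted p = 0.481), and PHLDA1 (-0.63), and the highest those of DUSP16 (0.15) and DUSP4 (0.09). DUSP5 held 59.4 FPKM against 93.5 in the ARP1 control and 146 against 243 in H929. With overexpression the median was 0.12, with ETV5 (0.40) and PHLDA1 (0.39) the highest and DUSP10 (-0.47) and SPRED2 (-0.31) the lowest. Between the lines 6 of the 15 (DUSP5, DUSP6, DUSP7, DUSP10, ETV5 and PHLDA1) were lower in ARP1, as EGR1 was, and 2 (DUSP4 and DUSP16) were higher. DUSP5 had a log2 fold change of -1.34 (SE 0.10, limma adjusted p = 0.000691).

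All 21 upstream kinases and factors were tested. SRF ran from 18.7 to 27.9 FPKM over the 8 libraries. None passed in either arm by limma, with 1 lower and 1 higher in the libraries labelled knockdown and 0 with overexpression at an unadjusted p under 0.05. The medians were 0.03 with overexpression and -0.02 in the libraries labelled knockdown. In the libraries labelled knockdown the highest was ELK4 (0.63), and the lowest were NAB2 (-0.83) and MAPK14 (-0.23). With overexpression the highest were ELK4 (0.39) and RPS6KA5 (0.23) and the lowest NAB1 (-0.23) and MRTFB (-0.23). Between the lines 3 of the 21 (MRTFA, MRTFB and MAP2K2) were higher in ARP1 and 3 (NAB2, RPS6KA1 and MAPK9) were lower, near the share of all genes.

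The genes whose line-centred levels lay nearest to those of the 3 widest members were found among 9037 other coding genes over the 8 libraries. For JUN they were MARCKS (root-mean-square difference of 0.23 on the log2 scale), ORAI3 (0.25) and BMF (0.31). For FOS they were SLC9A9 (0.30), HIST1H4A (0.30) and FADS3 (0.33), and for FOSB SLC9A9 (0.17), AGTRAP (0.19) and SSBP2 (0.22). MARCKS held 3.66 and 7.83 FPKM in the ARP1 overexpression arm and 15.0 and 14.8 in its knockdown arm, each time the CHEK1 library before its control. In H929 MARCKS held 5.20 and 4.25, and 11.3 and 9.72 FPKM. Its lower overexpression arm in both lines, like that of JUN, follows from its choice by nearness to JUN over these same libraries.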

How the data were processed

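Poly(A) RNA of 8 libraries was sequenced in pairs, per the labels' protocols. The authors deposited 1 table of transcript FPKM for all libraries. Per the submitters' processing notes the tools were StringTie 1.3.0, HISAT2 2.0 and Bowtie 0.12.2, and the only build listed is mm8, a mouse one; the human build and the use of strand are not given in the sources used here. Of 88209 transcripts, 87707 were matched by name to GENCODE 29 and their FPKM summed per gene, so no read counts, depths or intervals are given. Values were tested as log2(FPKM + 1), which understates changes of low genes, over the 14905 genes with at least 1 FPKM in 2 libraries. One limma fit (limma 3.58.1, R 4.3.3, variance trend) held the 4 genotypes and the line as replicate block, with 3 residual degrees of freedom, with Benjamini-Hochberg adjustment over all genes tested (threshold 0.05). The block is the cell line of the labels, shared by the 4 libraries of each number. The fit was also run on simulated data with independent noise and overexpression changes alike in both lines. That run does not bear on changes that differ between the lines. Within-line ratios have no replicate.

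All 10 members are described. From 4 further lists, genes past the threshold and the 2 highest and 2 lowest fold changes in each arm are named, and the genes of most like pattern are the 3 nearest coding genes of at least 5 FPKM. A gene that this rule took is not reported here. DUSP5, ATF3, JDP2 and NAB2, for which levels by library are given, and SRF were singled out after their values were seen. The members and lists were chosen with earlier results of these data known. Alternatives varied the pseudocount, filter, scaling, block, trend, transcripts and libraries.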

Additional observations from a re-analysis of the deposited data

Results flagged for a closer look

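FOS differed in sign between the lines with CHEK1 overexpression, with log2 ratios of FPKM + 1 of -0.67 in ARP1 and 1.12 in H929, and JUN likewise, with -1.08 in ARP1 and 0.59 in H929. Both moved by at least 1.5-fold on that scale in each line. Each line has 1 library per genotype, and the difference between the lines was not tested.

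IER3 in ARP1 stood at 5.19 to 6.23 FPKM in 3 libraries and at 11.7 FPKM in the control of knockdown, a gap of 0.840 of the range of the 4 libraries, above Dixon's critical value for 4 values. Among 40 groups of 4 libraries (each member by line and by arm) this was the only such gap, where chance gives about 1 in 20.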

How the results depend on the processing

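Of 1160 recomputed fold changes, 1088 kept their direction and side of the threshold, 42 reversed (37 with a library left out), 13 lost and 17 gained the threshold. Past the threshold with overexpression was 1 gene, against 2 with no filter and 0 with protein-coding genes alone or once transcripts under 300 nt were dropped. In the libraries labelled knockdown it was 2, against 1 with a pseudocount of 0.1 or TPM-like scaling, 5 with no trend, and 0 with at least 5 FPKM, without short transcripts, with protein-coding genes alone or with no replicate block. The difference of effects had 2, against 1 with a pseudocount of 0.1 and 0 with no filter, without short transcripts or with protein-coding genes alone. Between arms it was 16, against 6 (pseudocount of 0.1), 0 (no filter), 288 (at least 5 FPKM), 254 (without short transcripts), 318 (protein-coding), 8 (no trend) and 2 (no replicate block), with 1 member, JUN, in the fits that gave 288, 254 and 318. Between controls it was 8, against 5 with no filter, 3 without short transcripts, 4 with protein-coding genes and 2 with no replicate block. Between lines it was 3 members, against 1 with no filter and 5 (FOS and JUN added) with at least 5 FPKM, TPM-like scaling, protein-coding genes, length-weighted FPKM (chosen after seeing the data) or without short transcripts. The cause was not tested.

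The sign turned for JUND in the libraries labelled knockdown (-0.039, length-weighted) and between lines (0.014 with median-ratio scaling, 0.022 length-weighted), and for FOSB in the difference of effects (-0.0076 with median-ratio and -0.014 with TPM-like scaling). FOS with overexpression in H929 was -0.30 against the other control. With that control, members at least 2-fold higher with overexpression, on FPKM + 1, were 0 (1 with its own) and lower 4 (1), and in the libraries labelled knockdown higher 4 (0) and lower 1 (3), summed over lines.

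Leaving out 1 library gave 1 to 3 genes with overexpression, 0 to 837 in the libraries labelled knockdown, 0 to 5 for the difference, 0 to 2007 between arms, 1 to 11 between controls and 1830 to 4039 between lines, with 1 to 4 members there and 0 in the other comparisons. The 837 and 2007 arose without the H929 library labelled knockdown. Signs turned with overexpression for FOS (-0.53 to 0.98), FOSB (-0.54 to 0.65), JUN (-0.89 to 0.40), EGR1 (-0.24 to 0.63), IER3 (-0.39 to 0.32), DUSP1 (-0.85 to 0.35) and DUSP2 (-0.58 to 0.12). In the libraries labelled knockdown they turned for FOS (-1.27 to 0.30), FOSB (-0.46 to 0.54), JUND (-0.32 to 0.47), IER2 (-0.40 to 0.036) and DUSP1 (-0.82 to 0.33). For the difference they turned for FOS (-0.074 to 1.49), FOSB (-0.58 to 0.62), JUNB (-0.12 to 0.36), JUND (-0.089 to 0.70) and DUSP1 (-0.61 to 0.59), between controls for DUSP2 (-0.29 to 0.41), and between lines for DUSP1 (-0.15 to 0.43) and JUND (-0.14 to 0.18).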
